A study of Mus musculus with 2 samples.

Results

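Dynactin is the multisubunit partner of the microtubule motor dynein, and the 9 genes that encode its own subunits in the mouse (Dctn1, Dctn2, Dctn3, Dctn4, Dctn5, Dctn6, Actr1a, Actr1b and Actr10) are described here across the nuclei of the hippocampus. They were chosen by name and not by a rule on their values, although earlier results of these data were known. These 9 are among the 32285 genes counted. All 9 were detected in both libraries, and all 9 passed the floor of 200 UMIs over both libraries together. The study made 1 single-nucleus hippocampal library for each of 2 genotypes, Capza2+/- (a heterozygous knockout) and wild type. The product of Capza2 is an alpha subunit of the actin capping protein. The labels do not give the deleted stretch of Capza2, or the strain, age and sex of the mice. With 1 library per genotype there was no replicate check, so every difference between genotypes is a difference between 2 libraries, and no p-value is given.

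Dynactin links dynein to its cargo and is needed for most transport toward the minus ends of microtubules. Its core is a short filament of actin-related protein 1 (Arp1), encoded by Actr1a and Actr1b, with a beta-actin subunit among the Arp1 copies. Capping protein closes the barbed end of that filament, and a group of subunits closes the pointed end. A shoulder on the filament carries the long arm of Dctn1 (p150Glued), which binds microtubules and dynein. In neurons the motor carries endosomes, autophagosomes and growth factor signals from axon terminals to the cell body.

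A UMI (unique molecular identifier) marks 1 captured transcript. Nuclei passed with 500 or more genes and no more than 5% of UMIs from mitochondrial genes, and likely doublets were removed. This left 6795 heterozygote nuclei, with a median of 5770 UMIs, and 6094 wild-type nuclei, with a median of 6658.5. Levels are UMIs scaled to a common total within the same nuclei (CPM, the usual unit), and every interval is a 95% interval for counting error only, not for the spread between mice. Only 13 barcode sequences occurred in both libraries. Classes were rebuilt from the counts and named "like" a cell type from its markers. Neurons are the neuronal classes together with excitatory clusters that took no regional name, 4144 and 4214 nuclei, and non-neuronal nuclei number 2160 and 1625. Barcodes that failed the filters, 590 in the heterozygote and 88 in the wild-type library, carried summed dynactin at 1279.7 and 1221 CPM, far above the 421 and 419 CPM of the nuclei kept. Median depth ran from 6299 to 16834 UMIs over the 5 neuronal classes, and was 1752 and 1846 UMIs in oligodendrocyte-like, 2656 and 2710 in astrocyte-like and 1464 and 1469.5 in microglia-like nuclei.

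Capza2, the targeted gene, had 3759 UMIs (67.5 CPM) in the heterozygote library and 4611 (86.0 CPM) in the wild-type library. The log2 ratio of heterozygote over wild type was -0.35, with an interval of -0.41 to -0.29, and the direction was that of the labels. Whether the 3' reads lie in the deleted stretch could not be settled from the labels.

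The Arp1 filament is built from a pair of closely related genes, and the pair divided differently between neurons and non-neuronal nuclei, most widely in oligodendrocyte-like nuclei. Actr1b (ENSMUSG00000037351, GRCm38 chromosome 1, 36698114 to 36714422, minus strand) stood at 64.8 CPM in heterozygote and 71.5 CPM in wild-type neurons, against 50.5 and 52.1 CPM in non-neuronal nuclei. It was higher in neurons in both libraries, by 0.36 on the log2 scale (0.18 to 0.54) in the heterozygote and 0.46 (0.26 to 0.66) in the wild type. Actr1a (ENSMUSG00000025228, chromosome 19, 46376811 to 46395748, minus strand) went the other way. It stood at 28.8 and 30.1 CPM in neurons and at 42.9 and 42.2 CPM in non-neuronal nuclei, log2 ratios of -0.58 (-0.78 to -0.37) and -0.49 (-0.71 to -0.26). No other dynactin gene had an interval wholly above 0 in this comparison.

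The share of Actr1b among the UMIs of the pair gave the same contrast in a form that does not depend on the total counted per nucleus. The share is of UMIs and not per transcript length, so it is compared between classes only. It was 69.3% (Clopper-Pearson interval 67.8 to 70.7) in heterozygote neurons and 70.4% (69.1 to 71.7) in wild-type neurons. In non-neuronal nuclei it was 54.0% (49.6 to 58.4) and 55.3% (50.4 to 60.1), so the intervals of the groups did not meet in either library. CA3 pyramidal-like nuclei had the highest share among the 8 classes that held 200 or more nuclei in both libraries. It was 72.8% (68.4 to 76.9) in the heterozygote and 75.6% (71.1 to 79.8) in the wild type. These intervals overlapped those of the other neuronal classes. Oligodendrocyte-like nuclei had 44.8% and 47.2%, with every upper bound below every lower bound of the 5 neuronal classes. Astrocyte-like nuclei, at 64.6% and 63.4%, overlapped the neuronal range, and microglia-like nuclei, at 65.2% and 42.9% on 46 and 42 UMIs, were too few to place. Oligodendrocyte precursor-like nuclei, under 200 in each library, stood at 50.0% and 64.9%.

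**Figure D1:**
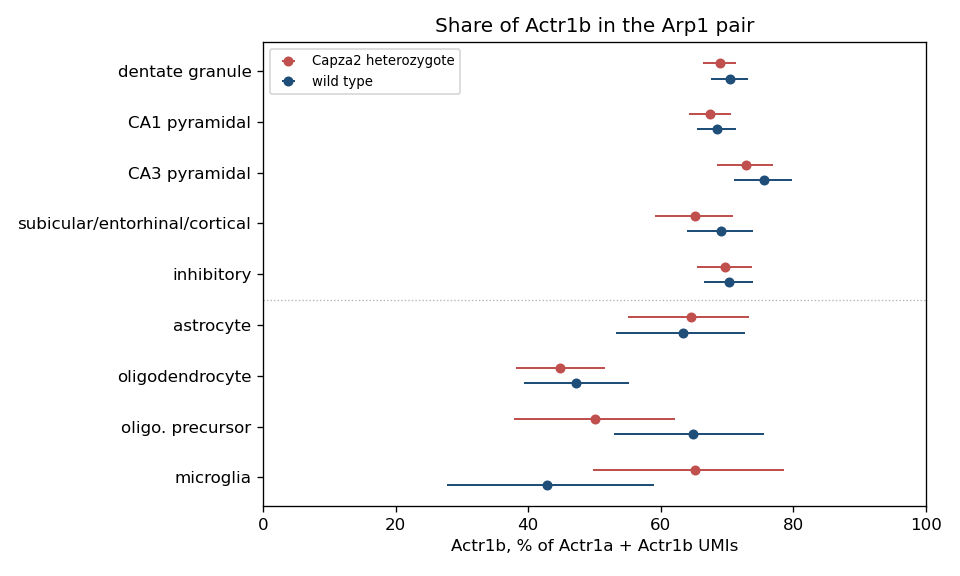
Share of Actr1b (x axis, % of Actr1a and Actr1b UMIs together) in 9 classes of nuclei, points with 95% Clopper-Pearson intervals, red for the Capza2 heterozygote and blue for the wild type; the dotted line parts neuronal from non-neuronal classes. The 5 neuronal classes lie between 65.2% and 75.6%, and oligodendrocyte-like nuclei at 44.8% and 47.2%.

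Non-neuronal nuclei were shallower than neurons, with median depths of 1903.5 and 2011 UMIs against 8631.5 and 8544.5. In nuclei of 2000 to 6000 UMIs, a range chosen after the data were seen, the Actr1b share was 68.0% and 71.0% in neurons and 49.0% and 54.5% in non-neuronal nuclei. The contrast was no smaller within this range, and the intervals did not meet in either library. Depth was closer there but not equal, with medians of 4630.5 and 4569 UMIs in neurons and 2704 and 2633 in non-neuronal nuclei. In those nuclei Actr1b was higher in neurons by 0.56 (0.26 to 0.88) and 0.63 (0.31 to 0.96) on the log2 scale, and Actr1a lower, at -0.58 (-0.93 to -0.23) and -0.41 (-0.80 to -0.01).

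The promoter stretches of the Arp1 pair are shown because the 2 genes took opposite sides. Both are RefSeq sequence of GRCm38.p6, free of annotated exons, printed 5' to 3' on the gene's strand, with matches to 2 short motifs in capitals. The Actr1a stretch, chr19:46395749-46395898 on the minus strand, holds CCAAT and the SP1 letters GGGCGG. The Actr1b stretch, chr1:36710009-36710148 on the minus strand, ends 83 bases before the start in the RefSeq promoter entry and holds a CCAAT match on the reverse strand. It lies between annotated exons inside the GENCODE gene span given above, whose outermost transcript starts further upstream, at 36714422.
Actr1a: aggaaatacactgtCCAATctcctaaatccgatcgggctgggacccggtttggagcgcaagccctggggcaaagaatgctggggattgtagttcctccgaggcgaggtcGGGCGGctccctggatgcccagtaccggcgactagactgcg
Actr1b: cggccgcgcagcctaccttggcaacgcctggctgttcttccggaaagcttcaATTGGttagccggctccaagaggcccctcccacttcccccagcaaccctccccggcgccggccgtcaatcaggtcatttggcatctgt
Among 32841 RefSeq promoters, 33.9% held CCAAT and 32.7% held GGGCGG in the 250 bases before the start, on either strand, so neither match sets these genes apart. Actr1b shares part of its locus with 4933424G06Rik on the other strand. The sources used here do not say whether strand was counted, so UMIs from such a partner could not be told apart.

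Of the pointed-end subunits, Actr10 (Arp11), Dctn4 (p62), Dctn5 (p25) and Dctn6 (p27), where Dctn5 and Dctn6 form a pair that meets cargo adaptors, all had more CPM in non-neuronal nuclei than in neurons in both libraries. Actr10 (ENSMUSG00000021076, chromosome 12, 70937857 to 70964718, plus strand) stood at 42.0 and 41.0 CPM in neurons and 70.9 and 60.7 CPM in non-neuronal nuclei. Dctn6 (ENSMUSG00000031516, chromosome 8, 34090420 to 34108796, minus strand) stood at 30.7 and 32.7 CPM in neurons and 58.0 and 51.9 CPM in non-neuronal nuclei. In each of the 4 genes the log2 interval of neurons over non-neuronal nuclei lay below 0 in both libraries. The median over all genes tested was itself -0.36 and -0.32. Dctn5, at -0.45 (-0.69 to -0.19) and -0.42 (-0.69 to -0.13), had intervals that held those medians. The intervals of Actr10, Dctn4 and Dctn6 lay below them.

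Dctn4 (ENSMUSG00000024603, chromosome 18) was highest in oligodendrocyte-like nuclei, at 171.6 CPM in the heterozygote and 144.5 CPM in the wild type. Astrocyte-like nuclei followed with 131.4 and 129.4 CPM and microglia-like nuclei with 126.0 and 108.5 CPM. The 5 neuronal classes kept within 70.4 to 83.7 CPM, below all 3 of these glial classes. Between oligodendrocyte-like and astrocyte-like nuclei the intervals parted in the heterozygote library only.

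Dctn5 (ENSMUSG00000030868, chromosome 7, 122133041 to 122149044, plus strand), which the antisense gene Gm15489 overlaps, had a single high class. Microglia-like nuclei carried 79.5 CPM (41 UMIs, interval 57.0 to 108) in the heterozygote and 68.1 CPM (27 UMIs, 44.9 to 99.1) in the wild type. Oligodendrocyte-like nuclei carried 26.5 CPM (20.2 to 34.2) and 29.0 CPM (21.3 to 38.7), and no neuronal class passed 24.0 CPM. The microglia-like level lay above that of every other class of 200 or more nuclei, with no overlap of intervals in either library. Depth was alike in the 2 glial classes, with medians of 1464 and 1469.5 UMIs in microglia-like and 1752 and 1846 in oligodendrocyte-like nuclei. An unnamed cluster of hemoglobin-led barcodes, shallower than both at 669 and 798 UMIs, carried Dctn5 at 44.9 CPM (8 UMIs) and 27.0 CPM (1 UMI). These UMIs were too few to set its level against that of microglia-like nuclei.

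Of the shoulder subunits, Dctn1 had a pattern of its own. Dctn1 (p150Glued, ENSMUSG00000031865, chromosome 6, 83165920 to 83200117, plus strand) stood at 83.2 and 78.2 CPM in neurons and 78.7 and 82.6 CPM in non-neuronal nuclei. The log2 ratios of 0.08 (-0.06 to 0.23) and -0.08 (-0.23 to 0.08) held 0 in both libraries. Dentate granule-like nuclei, at 97.1 and 89.3 CPM, were the highest neuronal class, and in the heterozygote library their interval lay above those of the other neuronal classes. In nuclei of 2000 to 6000 UMIs Dctn1 was higher in neurons in both libraries, by 0.33 (0.10 to 0.57) and 0.36 (0.09 to 0.63). The antisense gene Gm15624 overlaps Dctn1.

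Dctn2 (dynamitin, ENSMUSG00000025410, chromosome 10, 127266368 to 127281950, plus strand) stood at 33.4 and 34.0 CPM in neurons and 57.1 and 54.6 CPM in non-neuronal nuclei. It was highest in oligodendrocyte-like nuclei at 66.9 and 68.2 CPM, but the intervals overlapped those of astrocyte-like nuclei (53.8 and 62.9 CPM) in both libraries. Dctn3 (p24, ENSMUSG00000028447, chromosome 4, 41714798 to 41723170, minus strand) had the widest contrast of the 9. It stood at 24.6 and 23.7 CPM in neurons and 66.7 and 54.4 CPM in non-neuronal nuclei, log2 ratios of -1.44 (-1.61 to -1.27) and -1.20 (-1.40 to -0.99). Microglia-like nuclei (85.3 and 90.8 CPM) and oligodendrocyte-like nuclei (82.6 and 74.5 CPM) were highest and CA3 pyramidal-like nuclei (16.7 and 18.7 CPM) lowest. Il11ra1 overlaps Dctn3 on the other strand.

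The contrast of Dctn3 moved with depth. In nuclei of 2000 to 6000 UMIs its log2 ratio of neurons over non-neuronal nuclei was -0.45 (-0.75 to -0.16) in the heterozygote and -0.09 (-0.44 to 0.26) in the wild type. In barcodes that failed the filters Dctn3 reached 232 CPM in the heterozygote library, on 74 UMIs, and 82.8 CPM in the wild-type library, on 4 UMIs. Actr10 also moved, to -0.32 (-0.59 to -0.05) and 0.02 (-0.29 to 0.34). Dctn4 and Dctn2 kept intervals below 0 in both libraries, at -0.70 and -0.47 for Dctn4 and -0.52 and -0.60 for Dctn2.

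**Figure D2:**
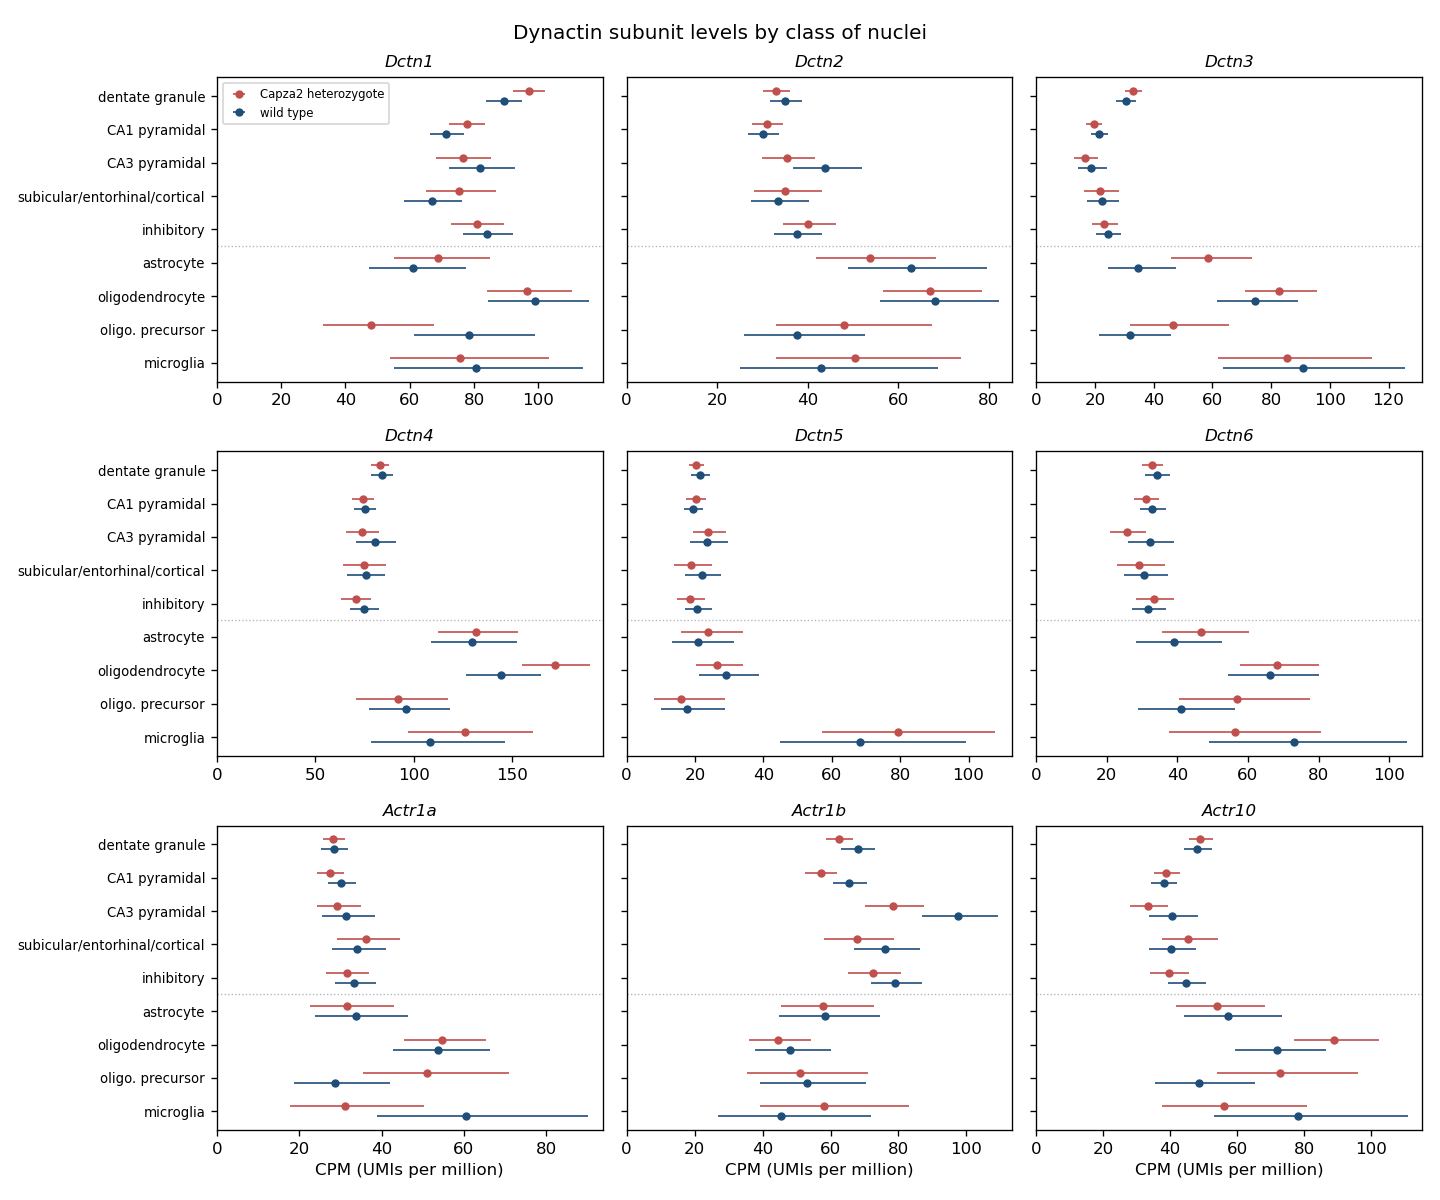
Level of each dynactin gene (x axes, CPM) in 9 classes of nuclei, points with exact 95% Poisson intervals, red for the Capza2 heterozygote and blue for the wild type; the dotted line parts neuronal from non-neuronal classes. Dctn5 is high in microglia-like nuclei (79.5 and 68.1 CPM), Dctn4 in oligodendrocyte-like nuclei (171.6 and 144.5 CPM), and Actr1b in CA3 pyramidal-like nuclei (78.4 and 97.6 CPM).

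Summed over the 9 genes, dynactin took a smaller part of the RNA of neurons than of non-neuronal nuclei. The sum was 405 CPM in heterozygote and 409 CPM in wild-type neurons, against 589 and 544 CPM in non-neuronal nuclei, log2 ratios of -0.54 (-0.60 to -0.49) and -0.41 (-0.47 to -0.35). Over all genes tested the median log2 ratios were -0.36 and -0.32. Past 1.5-fold in both libraries, 4 of the 9 (Dctn2, Dctn3, Dctn4 and Dctn6) were higher in non-neuronal nuclei, where 32.9% of 12223 genes were. None of the 9 was higher in neurons past that fold, against 16.0% of genes. The members' count on the non-neuronal side was thus near that of genes at large.

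By molecules per nucleus the order was the opposite. Neurons held 4.42 and 4.40 dynactin UMIs per nucleus and non-neuronal nuclei 1.48 in each library, 2.99-fold and 2.96-fold more in neurons. At least 1 dynactin UMI was found in 94.9% and 94.04% of neurons and in 71.1% and 71.4% of non-neuronal nuclei. With each nucleus thinned to 1000 UMIs, which left out 6 and 9 neurons and 79 and 58 non-neuronal nuclei, the shares were 35.4% and 35.1% in neurons and 47.8% and 43.5% in non-neuronal nuclei. No class is known to lack dynactin, so no share could be set against a class without it.

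The summed contrast was smaller within a narrower range of depth, where neurons were still the deeper group. In nuclei of 2000 to 6000 UMIs (1104 and 1085 neurons, 917 and 739 non-neuronal) the log2 ratio was -0.24 (-0.33 to -0.15) in the heterozygote and -0.13 (-0.23 to -0.02) in the wild type. Transcripts made outside these nuclei moved with the contrast. Ttr, an abundant transcript of the choroid plexus, stood at 693 and 182 CPM in oligodendrocyte-like nuclei, the largest non-neuronal class, and at 123 and 34.8 CPM in neurons. Mitochondrial transcripts stood at 1483 and 1767 CPM in the former and 489.9 and 846 CPM in the latter. Their part in the result was not tested.

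**Figure D3:**
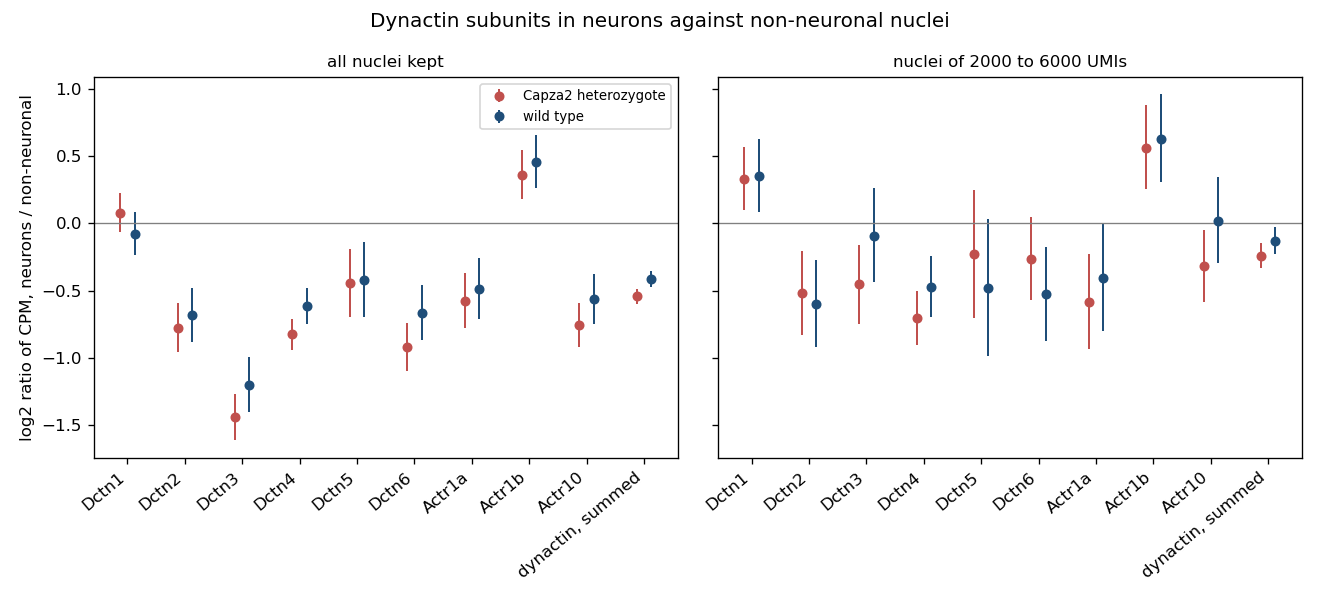
Log2 ratio of CPM, neurons over non-neuronal nuclei (y axis), for each dynactin gene and their sum, points with exact 95% counting intervals, red for the Capza2 heterozygote and blue for the wild type; all nuclei on the left, nuclei of 2000 to 6000 UMIs on the right. Actr1b lies above 0 in both panels, and the sum moves from -0.54 and -0.41 to -0.24 and -0.13.

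Over all nuclei the summed dynactin level hardly differed between the libraries. The heterozygote library held 23483 dynactin UMIs (421 CPM) and the wild-type library 22498 (419 CPM), a log2 ratio of 0.01 with an interval of -0.02 to 0.03. The counting interval leaves out a difference of the size seen for Capza2. In neurons the sum was 405 and 409 CPM, a log2 ratio of -0.02 (-0.05 to 0.01). In non-neuronal nuclei it was 589 and 544 CPM, a log2 ratio of 0.11 (0.04 to 0.19).

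Among single genes over all nuclei, 3 of 9 were lower in the heterozygote, against 52.2% of the 14457 genes tested. The median of the 9 log2 ratios was 0.02, beside -0.01 for all genes. No member passed a ratio of 5 to 4 between the libraries, which 4.97% of genes did upward and 4.51% downward. The interval lay below 0 for 1 member (22.6% of genes) and above 0 for 2 (19.7% of genes).

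The member below 0 was Actr1b. It had 3469 UMIs (62.2 CPM) in the heterozygote and 3700 (69.0 CPM) in the wild type, a log2 ratio of -0.15 (-0.22 to -0.08). Its paralogue Actr1a had 1670 UMIs (29.97 CPM) and 1666 (31.1 CPM), a ratio of -0.05 (-0.15 to 0.05), so its interval overlapped that of Actr1b. The Actr1b share of the pair was 67.5% (66.2 to 68.8) and 69.0% (67.7 to 70.2), with overlapping intervals.

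Actr1b was lower in the heterozygote in each of the 5 classes where it passed the floor, all of them neuronal. Over all 8 classes 55.9% of the pairs of gene and class were lower. In CA3 pyramidal-like nuclei it stood at 78.4 against 97.6 CPM, a log2 ratio of -0.32 (-0.55 to -0.08). In CA1 pyramidal-like nuclei it stood at 57.1 against 65.6 CPM, a ratio of -0.20 (-0.36 to -0.04). The intervals held 0 in dentate granule-like nuclei (-0.12), inhibitory neuron-like nuclei (-0.12) and the subicular, entorhinal or cortical class (-0.17). Counted as UMIs per nucleus, its ratio was 0.025 (-0.21 to 0.26) for the CA3 class, -0.0088 (-0.17 to 0.15) for the CA1 class and 0.13 (-0.08 to 0.34) for the inhibitory class, so both calls were lost on that scale and the direction turned outside CA1 among these 3. In inhibitory neuron-like nuclei the ratio was 0.02 when no doublets were removed and 0.02 when each nucleus was weighted alike.

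The 2 members above 0 were Dctn3 and Dctn1. Dctn3 had 1620 UMIs (29.1 CPM) in the heterozygote and 1400 (26.1 CPM) in the wild type, a log2 ratio of 0.16 (0.05 to 0.26). Its ratio was 0.05 (-0.07 to 0.17) in neurons and 0.29 (0.06 to 0.54) in non-neuronal nuclei. Dctn1 had 4554 UMIs (81.7 CPM) and 4194 (78.2 CPM), a ratio of 0.06 (0.00 to 0.12), and lies 65.5 Mb from Capza2 on the same chromosome. The interval of Dctn1 held 0 with no doublet removal, at 0.045 (-0.013 to 0.10), and with the automatic doublet threshold, at 0.061 (-0.0012 to 0.12). Per nucleus its ratio turned to -0.038 (-0.099 to 0.023), and that of Dctn3 was 0.053 (-0.051 to 0.16). The intervals of Dctn2 (0.02), Dctn4 (0.02), Dctn5 (0.02), Dctn6 (-0.01) and Actr10 (0.05) all held 0.

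**Figure D4:**
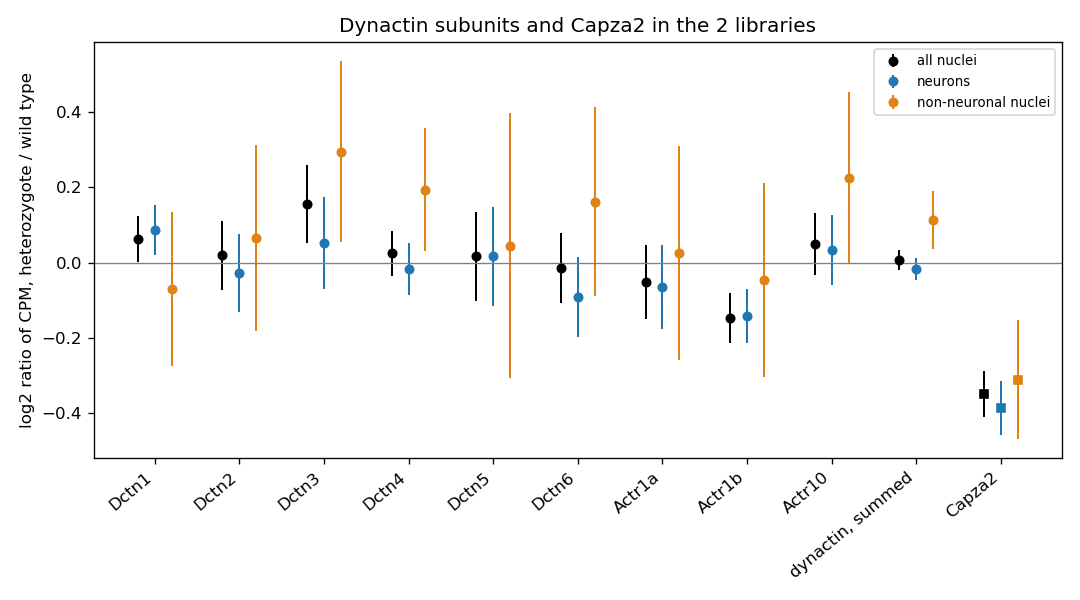
Log2 ratio of CPM, Capza2 heterozygote over wild type (y axis), for each dynactin gene, their sum and Capza2, points with exact 95% counting intervals in all nuclei (black), neurons (blue) and non-neuronal nuclei (orange). The sum lies at 0.01 in all nuclei, Actr1b at -0.15 and Capza2 at -0.35.

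By class, the interval of the summed level left 0 in CA3 pyramidal-like nuclei alone among the 8 classes. The 219 heterozygote nuclei held 1623 dynactin UMIs (393 CPM) and the 205 wild-type nuclei 1374 (450.1 CPM), a log2 ratio of -0.20 (-0.30 to -0.09). All 7 members over the floor there were lower, where 61.1% of 4747 genes were, with a median of -0.28 beside -0.05 for all genes. The 2 members under the floor, Dctn3 and Dctn5, stood at -0.16 and 0.02. The heterozygote CA3 pyramidal-like nuclei were deeper, with a median of 16834 against 13388 UMIs, and held 7.41 against 6.70 dynactin UMIs per nucleus, so the direction turned when counted per nucleus. The part of depth in the result was not tested.

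In the other 7 classes the summed log2 ratio lay between -0.07 (inhibitory neuron-like and microglia-like) and 0.10 (oligodendrocyte-like), each with an interval that held 0. Among other groups, the interval left 0 in the larger dentate granule-like cluster, at -0.07 (-0.14 to -0.01). It also did in an excitatory cluster with no regional name (128 and 275 nuclei), at -0.14 (-0.26 to -0.02). The small pericyte or smooth muscle-like class (71 and 50 nuclei) stood higher in the heterozygote, at 0.56 (0.15 to 0.99). Of the 72 pairs of member and class, 46 passed the floor, and 28 were lower and 18 higher in the heterozygote. The interval lay below 0 for 2 of the 46 and above 0 for 2, against 11.9% and 9.06% of all pairs of gene and class. Besides Actr1b in CA1 and CA3 pyramidal-like nuclei, the interval left 0 for Dctn1 in dentate granule-like nuclei and Dctn4 in oligodendrocyte-like nuclei. Dctn1 stood there at 97.1 against 89.3 CPM, a log2 ratio of 0.12 (0.00 to 0.24), and Dctn4 at 171.6 against 144.5 CPM, a ratio of 0.25 (0.01 to 0.49). Both calls were lost with no doublet removal, at 0.12 (-0.0022 to 0.23) for Dctn1 and 0.24 (-0.0017 to 0.48) for Dctn4. Both were also lost in the largest cluster of the class, at 0.10 (-0.039 to 0.24) and 0.22 (-0.067 to 0.52). For Dctn4 the interval held 0 as well in nuclei with at least 1000 genes, at 0.22 (-0.044 to 0.48), and per nucleus, at 0.24 (-0.0019 to 0.48).

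The genes that work with dynactin were read from lists of the same kind. Capzb, the beta subunit of capping protein, stood at 46.7 and 49.6 CPM over all nuclei, a log2 ratio of heterozygote over wild type of -0.09 (-0.17 to -0.01). Capza1, the other alpha subunit found outside the testis, stood at 55.5 and 57.8 CPM, a ratio of -0.06 (-0.13 to 0.01). Of 13 adaptors that bind dynein and dynactin and passed the floor, 12 were lower in the heterozygote, with a median of -0.11, where 52.2% of all genes were lower, with a median of -0.01. The interval lay below 0 for 7 of these 13, against 22.6% of all genes. Lower past the ratio of 5 to 4 was 1 of them, against 4.51% of all genes. This was Hook2, an adaptor of the Hook family, at -0.34 (-0.45 to -0.23). Of 12 dynein subunits 7 were lower, with a median of -0.04, a share near that of all genes. Their interval lay below 0 for 5 and above 0 for 3, against 22.6% and 19.7% of all genes.

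Both cytoplasmic actins were higher in the heterozygote over all nuclei, Actb by 0.17 (0.14 to 0.20) and Actg1 by 0.22 (0.16 to 0.28). Within neurons the ratios were 0.06 (0.02 to 0.10) for Actb and 0.08 (0.01 to 0.15) for Actg1. Within non-neuronal nuclei they were 0.23 (0.16 to 0.29) and 0.36 (0.23 to 0.49). Both intervals lay above 0 in dentate granule-like, oligodendrocyte-like and astrocyte-like nuclei. Actb was lower in CA3 pyramidal-like nuclei, at -0.52 (-0.69 to -0.36), and in inhibitory neuron-like nuclei, at -0.22 (-0.35 to -0.08). The mix of nuclei differed too. Non-neuronal nuclei made up 31.8% of nuclei in the heterozygote library and 26.7% in the other, and they held Actb at 808 and 691 CPM against 240.2 and 230.3 CPM in neurons. The part of the mix in the result was not tested.

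Between neurons and non-neuronal nuclei the dynein subunits and the adaptors spread more widely than dynactin did. Of 10 dynein subunits over the floor, 2 were past 1.5-fold higher in neurons in both libraries and 5 higher in non-neuronal nuclei, where 16.0% and 32.9% of all genes were. Dync1i1, the dynein intermediate chain through which the motor meets dynactin, was higher in neurons by 1.77 and 1.75 on the log2 scale, and its paralogue Dync1i2 by 0.79 and 0.81. The light chains Dynll1 and Dynll2 stood at -1.52 and -1.32 and at -1.53 and -1.33. Among 13 adaptors, 5 were higher in neurons and 2 in non-neuronal nuclei past the same fold, to be read against the same shares of all genes. Bicdl1, which couples dynein to secretory vesicles, stood highest at 2.25 and 2.03. Of 8 dynein regulators and plus-end partners over the floor, 1 was past 1.5-fold higher in neurons and 4 in non-neuronal nuclei. The 1 was Clip1, a protein of growing microtubule ends that Dctn1 binds, at 0.69 and 0.88. Mapre2 stood lowest of the 8, at -0.99 and -0.85. Of 5 genes of the opposing motor kinesin-1, 1 was past that fold in neurons and 0 in non-neuronal nuclei, against the same shares. This was the heavy chain Kif5c, at 0.78 and 1.06, and Kif5b stood lowest, at -0.47 and -0.42.

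**Figure D5:**
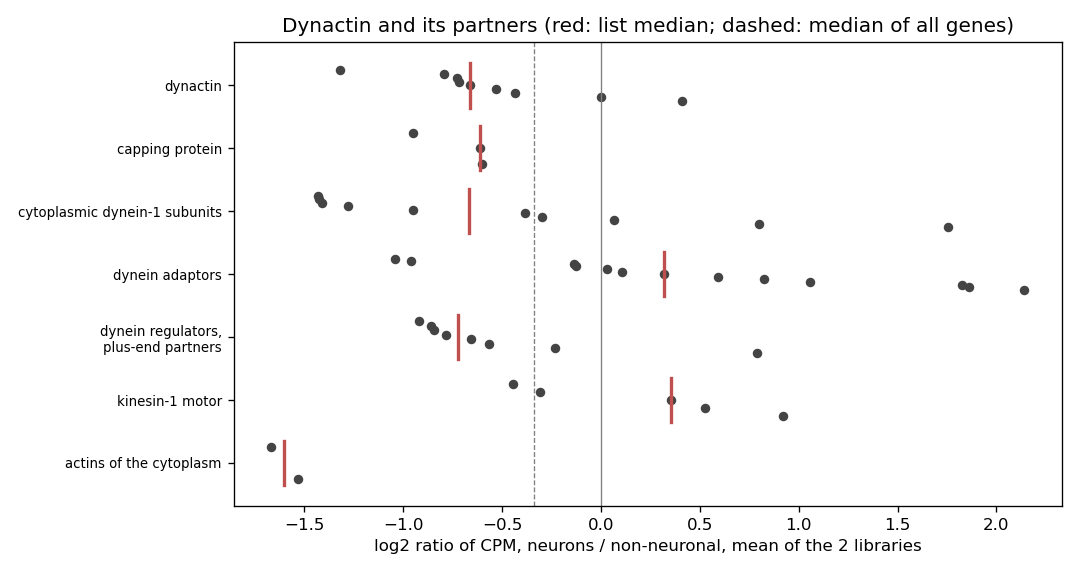
Log2 ratio of CPM, neurons over non-neuronal nuclei, mean of the 2 libraries (x axis), with a point for each gene over the floor in 7 lists; red bars are list medians and the dashed line is the median of all genes. The dynactin genes run from Dctn3 on the left to Actr1b on the right, and the adaptors and dynein subunits reach further right, to Bicdl1 and Dync1i1.

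Among themselves most members followed one another across classes, and Dctn1 and Actr1b stood apart. Over 18 points (9 classes in each library), Pearson's r of log2(CPM + 1) was 0.95 between Dctn3 and Dctn6, 0.93 between Dctn6 and Actr10 and 0.90 between Dctn3 and Actr10. Actr1b had r of -0.82 with Dctn6 and -0.82 with Actr10. Dctn1 had r between -0.01 and 0.20 with each of the other 8, and Dctn4 and Actr1a, within the larger group, had 0.56. Dctn5, with its highest points in microglia-like nuclei, had r of 0.66 with Dctn3 and 0.57 with Dctn6, and -0.31 with Actr1b. The points share libraries, and shallow classes lie at one end, so these values describe the classes only.

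The promoters of Dctn3 and Actr10, whose levels followed each other, are shown in the same way. The Dctn3 stretch, chr4:41723171-41723320 on the minus strand, has in capitals the cAMP response element TGACGTCA and a CCAAT match on the reverse strand. The Actr10 stretch, chr12:70937707-70937856 on the plus strand, has in capitals a match to the NRF1 motif and an SP1 match (GGGCGG), both on the reverse strand.
Dctn3: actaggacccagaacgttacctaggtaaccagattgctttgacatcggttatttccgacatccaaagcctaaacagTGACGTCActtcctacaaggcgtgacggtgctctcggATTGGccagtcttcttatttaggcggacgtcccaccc
Actr10: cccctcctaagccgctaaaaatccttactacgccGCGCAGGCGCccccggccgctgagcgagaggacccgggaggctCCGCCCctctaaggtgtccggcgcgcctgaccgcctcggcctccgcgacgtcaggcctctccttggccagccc
The 2 stretches had none of these motifs in common. TGACGTCA was held by 1.55% of the 32841 promoters and the NRF1 motif by 3.74%. RefSeq entries were found for 7 of the 9 members. Of these 7, 5 (Dctn2, Dctn3, Dctn5, Actr1a and Actr1b) held CCAAT, a match found in 33.9% of all promoters. The letters TATAAA, found in 12.4% of promoters, and the ETS letters CCGGAAGT, found in 2.88%, were in none of the 7.

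The genes most like each pattern were ranked by the same correlation among 9885 genes. For the summed dynactin level they were Eif4h, Mrpl28 and Acyp1, with r of 0.96 each. Actr1b was followed by Aak1 (0.92), Clmp (0.89) and Slit2 (0.88). Actr1a was followed by Clip3 (0.88), Rnf168 (0.87) and Rfc2 (0.86), and Dctn1 by Plekhh2 (0.90), Atg16l1 (0.82) and Slc6a6 (0.82).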

How the data were processed

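Nuclear RNA was measured in 2 libraries of mouse hippocampus by droplet single-nucleus sequencing (10x Genomics 3' v3), 1 per genotype. The authors deposited raw UMI counts for each gene in each barcode, made with Cell Ranger 7.1.0 and mm10 per the submitters' processing notes. The sources used here do not say whether intronic reads were counted. Later steps used Python 3.11.15 with numpy 2.4.6, scipy 1.17.1, scanpy 1.11.5 and, for the clusters, leidenalg 0.10.2. The deposited libraries held 62702888 UMIs in 7801 barcodes (heterozygote) and 58701532 in 6512 (wild type).

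Barcodes with at least 500 genes and at most 5% mitochondrial UMIs were kept (7211 and 6424). Scrublet scores were used to remove the expected 0.8% per 1000 barcodes, 416 and 330 nuclei, because the automatic threshold marked 0.0139% of nuclei in the heterozygote library and 8.05% in the other. Both libraries were clustered together on 2000 variable genes, 30 components, 15 neighbours and Leiden resolution 1, with the dynactin genes and Capza2 left out. Clusters took a name from at least 3 detected markers with a mean log2 ratio of at least 1, or 0.5 among regional excitatory types. Of the 28 clusters, 3 mixed, 3 unnamed and 3 excitatory clusters with no regional name (532 and 868 nuclei, counted as neurons) entered no class.

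UMIs were summed per library and class. Ratios carry exact conditional binomial intervals, levels Poisson and shares Clopper-Pearson intervals, all at 95%. The floor for a ratio was 200 UMIs over both libraries in that class, and background shares cover all genes over it. With 1 library per genotype no test was possible. The ratio script was checked on simulated data. The members, lists and markers were chosen with earlier results of these data known. The members and the 3 capping protein genes were always named, with up to 4 extreme members of each other list and the 3 genes most like each of 4 patterns (genes with at least 1000 UMIs, classes with at least 100 nuclei, pseudocount 1), passing over gene models without a symbol of their own. Positions are from the GENCODE annotation of GRCm38, which held 32235 of 32285 gene identifiers, and promoters from RefSeq (GRCm38.p6).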

Additional observations from a re-analysis of the deposited data

How the results depend on the processing

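No paired analysis was possible because each genotype had 1 library, and for the same reason no library could be left out in turn. Of 95 values of the summed level and of the count of lower members under other settings, 76 stayed within the counting interval of the reported value or, for the count, within 1.5 times of it. Counted as UMIs per nucleus, the log2 ratio of heterozygote over wild type was -0.10 in all nuclei, 0.16 in CA1 pyramidal-like and 0.19 in inhibitory neuron-like nuclei, and turned to 0.14 in CA3 pyramidal-like nuclei, where Actr1b turned to 0.025. On that scale Dctn1 in all nuclei turned to -0.038, and 8 of 9 members were lower. Neurons over non-neuronal nuclei turned per nucleus to 1.58 (heterozygote) and 1.57 (wild type) for the sum. In the same order they turned to 1.35 and 1.30 for Dctn2, 0.68 and 0.78 for Dctn3, 1.30 and 1.37 for Dctn4, 1.67 and 1.56 for Dctn5, 1.201 and 1.31 for Dctn6, 1.54 and 1.49 for Actr1a and 1.36 and 1.41 for Actr10. Per nucleus a deeper class counts more, by construction.

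Thinned to 1000 UMIs, the summed genotype ratio was 0.088 in all, 0.074 in dentate granule-like and -0.22 in CA1 pyramidal-like nuclei, and 0.16 in the subicular, entorhinal or cortical class. With each nucleus weighted alike it was 0.10 in all nuclei, 1 member was lower, and the wild-type neuronal ratio was -0.51. As a mean of the class ratios it was -0.022, and in the largest dentate granule-like cluster -0.071, with an interval below 0. The heterozygote neuronal ratio was -0.39 in nuclei with at least 1000 genes. In nuclei of 2000 to 6000 UMIs, a setting added after the data were seen, the neuronal ratios were -0.24 and -0.13, and Actr10 turned to 0.022 in the wild type. The cause of these moves was not tested. Single members in microglia-like and astrocyte-like nuclei rest on few UMIs, so differences between the libraries there were mostly not detectable at this depth.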

Other observations

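Within the dentate granule-like class the summed dynactin level differed between its 2 clusters by more than between the libraries. The deeper cluster, with medians of 8568 UMIs in the heterozygote and 7468 in the wild type, held 406 and 426 CPM, and the shallower, with medians of 5080 and 4348 UMIs, held 495.7 and 486 CPM. The Actr1b share of the pair was 69.0% and 70.2% in the deeper and 68.7% and 71.6% in the shallower cluster, so that share did not move with depth there. In astrocyte-like nuclei Dctn3 had 74 UMIs (58.6 CPM) in the heterozygote and 38 (34.6 CPM) in the wild type, a log2 ratio of 0.76 (0.18 to 1.36) under the floor of 200 UMIs.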
